A study of Mus musculus with 2 samples.

Results

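The genes described are 7 microRNAs annotated inside host genes on the same strand: Mir346 in Grid1, Mir592 in Grm8, Mir490 in Chrm2, Mir224 and Mir452 in Gabre, Mir488 in Astn1 and Mir383 in Sgcz. They were chosen by symbol, and all 7 were found among the 1973 gene rows of the tables. Their hairpins were counted in 2 microRNA-seq libraries of hindbrain from B6NCrl mouse embryos at embryonic day 15.5. Each library came from its own pool of male and female embryos, 78 for replicate 1 and 62 for replicate 2. There is 1 group, with no treatment and no other tissue or age, so the only comparison is between the pools.

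MicroRNAs are cut from longer transcripts, first by Drosha in the nucleus and then by Dicer in the cytoplasm, and load into Argonaute proteins. The seed, bases 2 to 8 of the mature strand, pairs with target messenger RNAs and lowers their translation or stability. A microRNA in an intron can be transcribed with its host gene, or from a promoter of its own. Several of these hosts act at synapses. Grid1 encodes the delta-type glutamate receptor GluD1, which organises synapses through cerebellins and neurexins. Grm8 encodes a presynaptic metabotropic glutamate receptor, Chrm2 the M2 muscarinic acetylcholine receptor, and Gabre the epsilon subunit of the GABA-A receptor. Astn1 encodes astrotactin, an adhesion protein of neurons migrating along glial fibres, and Sgcz encodes zeta-sarcoglycan, a membrane protein of the dystrophin-associated complex. The description as receptor genes therefore covers 4 of the 6 hosts and 5 of the 7 microRNAs, and not Astn1 or Sgcz. Host messenger RNA was not analysed here.

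The mature sequences of 6 of the 7 members were matched in RefSeq (build GRCm38.p6). They are shown because a gene row adds both arms of a hairpin together, so either arm may have given the reads. Capitals mark the seed, and sequences run 5′ to 3′.
mmu-miR-346-5p: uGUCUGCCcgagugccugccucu
mmu-miR-346-3p: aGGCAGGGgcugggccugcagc
mmu-miR-592-5p: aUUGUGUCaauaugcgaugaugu
mmu-miR-592-3p: uCAUCACGuggugacgcaacau
mmu-miR-490-5p: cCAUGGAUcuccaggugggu
mmu-miR-490-3p: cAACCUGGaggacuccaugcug
mmu-miR-224-5p: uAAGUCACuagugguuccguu
mmu-miR-224-3p: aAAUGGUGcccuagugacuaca
mmu-miR-452-5p: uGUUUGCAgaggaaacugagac
mmu-miR-452-3p: uCAGUCUCaucugcaaagaggu
mmu-miR-488-5p: cCCAGAUAauagcacucucaa
mmu-miR-488-3p: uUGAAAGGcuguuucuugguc

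The 12 mature strands had 12 different seeds, so these 6 microRNAs form no seed family. Mir224 and Mir452 share a host but no seed. Mir383, the remaining member, had no entry in the RefSeq table, so its seed was not compared. Only mmu-miR-346-3p shared its seed with a mature strand of another gene in the RefSeq table, mmu-miR-7001-5p, whose gene Mir7001 had 0 reads in both libraries. None of the 6 hairpins shared an exact stretch of at least 16 nt with another GENCODE M21 microRNA gene, on either strand. Other copies in the genome were not searched. The Mir346 hairpin was the richest in G and C of the 6, at 65.3%, above 91.8% of the 869 RefSeq hairpins with a row in the tables. The other 5 lay between 41.2% and 47.6%, below the median of 52.3%. Predicted folding energy per 100 nt ran from -50.7 kcal/mol for Mir346 to -35.5 for Mir488, on both sides of the median of -41.3.

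Positions in GENCODE M21, on the build of the deposited tables (mm10, GRCm38), placed the hairpins in introns of 6 hosts of very different size. Sgcz spans 1139 kb, Grm8 860 kb, Grid1 763 kb, Astn1 330 kb, Chrm2 140 kb and Gabre 18.8 kb. The median over the 565 protein-coding genes that hold a microRNA row in an intron on the same strand was 49.4 kb, so 5 of the 6 hosts exceeded it and Gabre did not. Intron numbers below refer to the host transcript with the longest coding sequence that spans the hairpin.

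Mir346 (ENSMUSG00000065481.1, chr14:34894609-34894706, plus strand) lies in intron 2 of 15 of Grid1, an intron of 123 kb, and 71.9 kb from the exon before it. Mir592 (ENSMUSG00000076067.1, chr6:27936655-27936750, minus strand) lies in intron 2 of 9 of Grm8, 219 kb long. In 1 of the 7 annotated Grm8 transcripts, a processed transcript without an annotated coding sequence, an exon of 3292 nt covers the Mir592 hairpin. Mir490 (ENSMUSG00000070075.1, chr6:36421742-36421825, plus strand) lies in the last intron of Chrm2, intron 2 of 2, 134 kb long. Mir383 (ENSMUSG00000065457.2, chr8:38252133-38252202, minus strand) lies in intron 1 of 7 of Sgcz, an intron of 708 kb, and 409 kb from the transcript start. Its position is that of version 3 of the gene in M21, while the tables hold version 2. Compared with the median intron of 8.25 kb over all 719 such microRNA rows, these 4 introns are long.

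The remaining 3 hairpins sit in short introns. Mir488 (ENSMUSG00000070103.2, chr1:158505625-158505733, plus strand) lies in intron 5 of 22 of Astn1, 4.38 kb long, and only 155 nt after the exon before it. Mir452 (ENSMUSG00000070138.1, chrX:72262224-72262308) and Mir224 (ENSMUSG00000065542.1, chrX:72261031-72261112) both lie on the minus strand in intron 6 of 8 of Gabre, 3.88 kb long. Mir452 comes first in the direction of transcription, 136 nt after the exon, and 1111 nt separate it from Mir224.

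**Figure D1:**
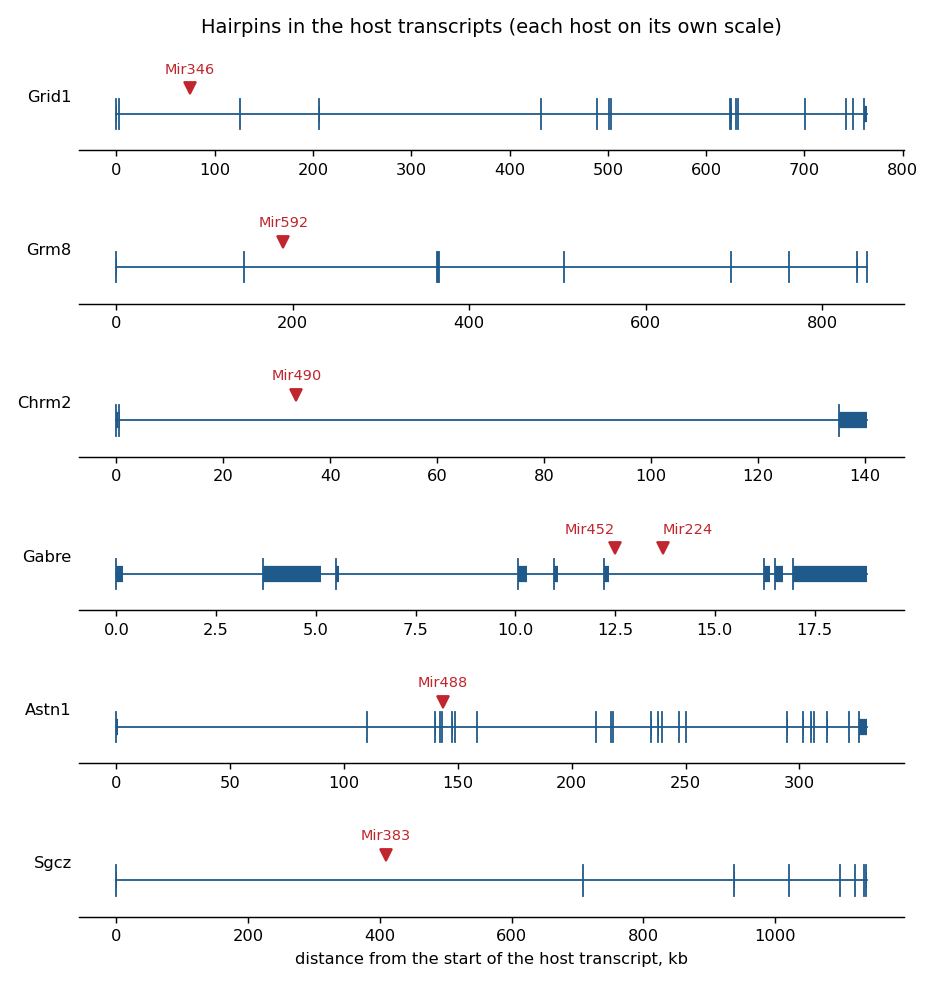
Each row shows 1 host transcript as a line with its exons as bars, against distance from the transcript start in kb, and red triangles mark the hairpins. Mir346, Mir592, Mir490 and Mir383 stand in long introns, while Mir488, Mir452 and Mir224 stand in introns of 4.38 kb or less.

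The tissue label was checked in the same libraries. Of 9 neural marker microRNAs 8 had a row, all above 3 reads in both libraries. Several were low, with 14 reads in replicate 1 and 21 in replicate 2 for Mir124a-1 and 6 and 11 for Mir124a-2. Mir124a-3 had 10 and 9 reads and Mir9-2 had 6 and 17, while the rest had at least 1991 in each library. Mir124a and Mir9 each have several gene copies, and reads that fit several copies may be given to none. Reads placed at several loci were 35.4% of all reads in replicate 1 and 34.2% in replicate 2, counted apart from the gene rows. The low counts are therefore no measure of how much miR-124 or miR-9 the tissue held. In every other list but muscle, all markers with a row also passed 3 reads, so passing it does not single out neural tissue. The hindbrain markers Mir10a and Mir10b summed to 90871 CPM in replicate 1 and 130404 in replicate 2. CPM is the count scaled to a total of 1000000 reads on the genes' own strand, of which there were 3937840 in replicate 1 and 4839647 in replicate 2. Of the 3 muscle markers, Mir1a-1 and Mir133a-1 were listed at 0, and Mir206 was at 27.2 CPM in replicate 1 and 23.3 in replicate 2. Summed levels in replicate 2 over replicate 1 were 1.60 for the liver marker Mir122 (35.6 and 57.0 CPM), 1.44 for the hindbrain markers, 1.28 for choroid plexus and ciliated epithelium, 1.14 for neural markers, 1.09 for epithelium and 1.04 for the oligodendrocyte lineage. They were 0.900 for mesenchyme and smooth muscle, 0.879 for the endothelial Mir126a, 0.859 for muscle and 0.741 for the 4 blood markers with a row. Some sums hide moves in opposite directions. Mir200c was at 20.1 CPM in replicate 1 and 32.6 in replicate 2, but Mir205 was at 33.5 and 25.8. Mir219a-2 was at 2041 and 2195 CPM, but Mir338 was at 359 and 328. The muscle value rests on Mir206 alone, with 107 and 113 reads and an interval across 0 in the comparison below. The pools thus differed in the levels of some markers for other cells, and the part of this in the values below was not tested. In bulk tissue, fewer cells of a type and less RNA per cell cannot be told apart.

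All 7 members were detected in both pools, at low to middle levels. Together they held 3998 reads in replicate 1, 0.102% of the gene reads (exact Clopper-Pearson 95% interval 0.0984 to 0.105), and 4839 in replicate 2 (interval of the share 0.0972 to 0.103%). Reads carry no molecular identifiers, so intervals and floors cover counting error only. The mean share was 0.101% ± 0.00109 (SD, n = 2). Mir383 gave 41.6% of the members' reads in replicate 1 and 40.7% in replicate 2. Every read of the 7 rows lay on the gene's own strand, with 0 on the opposite strand in both libraries. With 3 reads as the floor, the opposite share in replicate 1 is below 0.180% for Mir383 and 3.53% for Mir452. The exact Clopper-Pearson 95% interval is wider and reaches 0.221% for Mir383 and 4.25% for Mir452.

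The glutamate receptor hosts carried members of middle rank. Mir346 in Grid1 had 780 reads in replicate 1 and 930 in replicate 2, or 198 and 192 CPM (195 ± 4.18, SD, n = 2). Mir592 in Grm8 had 472 and 555 reads, or 120 and 115 CPM (117 ± 3.67). Both libraries placed Mir346 above Mir592, with no overlap of their values.

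Mir490, in the gene of the muscarinic receptor, stood lower. Its 250 and 324 reads gave 63.5 and 66.9 CPM (65.2 ± 2.45, SD, n = 2). Replicate 2 was the higher library for Mir490, by less than its counting interval.

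The Gabre intron gave unequal amounts of its microRNAs. Mir224 had 247 reads in replicate 1 and 295 in replicate 2, or 62.7 and 61.0 CPM (61.8 ± 1.25, SD, n = 2). Mir452 had 85 and 98 reads, or 21.6 and 20.2 CPM (20.9 ± 0.945), the lowest of the members. Mir224 thus exceeded Mir452, which lies before it in the same intron, in both pools. The ratio of their reads was 2.91 in replicate 1 (exact 95% interval 2.26 to 3.76) and 3.01 in replicate 2 (2.39 to 3.82), a mean of 2.96 ± 0.0738 (SD, n = 2). Mir224 made up 74.4% of the pair's reads in replicate 1 and 75.1% in replicate 2. A bias between hairpins that both libraries share, such as in ligation, would not show in the spread between pools, so this ratio holds for reads and may differ for molecules. The same holds for the order of all members.

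The hosts that encode no receptor carried the most abundant member and a middle one. Mir383 in Sgcz had 1665 reads in replicate 1 and 1968 in replicate 2, or 423 and 407 CPM (415 ± 11.4, SD, n = 2). Mir488 in Astn1 had 499 and 669 reads, or 127 and 138 CPM (132 ± 8.14). In CPM scaled by total counts, the coefficient of variation between the pools was 6.15% for Mir488 and 2.02% for Mir224, the extremes of the 7.

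**Figure D2:**
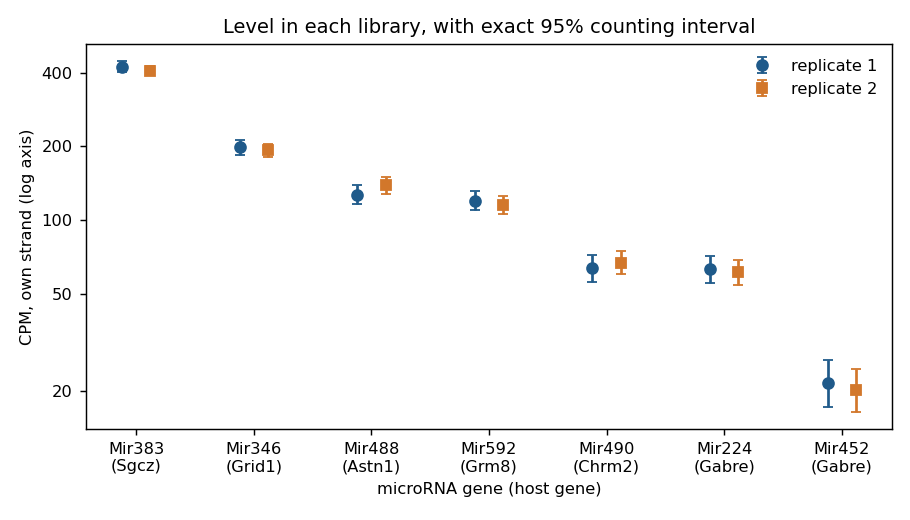
Points give the CPM of each member in replicate 1 (circles) and replicate 2 (squares) on a log axis, and bars give the exact 95% interval from counting error. The members fall from 415 CPM for Mir383 to 20.9 CPM for Mir452, and the libraries lie close together for each gene.

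The order from highest to lowest was Mir383, Mir346, Mir488, Mir592, Mir490, Mir224 and Mir452 in both libraries. Mir383 exceeded Mir452 19.6-fold in replicate 1 and 20.1-fold in replicate 2. Mir383 exceeded the next member, Mir346, 2.13-fold and 2.12-fold. Mir346 exceeded Mir488 1.56-fold in replicate 1 and 1.39-fold in replicate 2, and both intervals from counting error lay above 1. Mir592 exceeded Mir490 1.89-fold and 1.71-fold in the same way.

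Some neighbours in this order were not separable. Mir490 exceeded Mir224 1.01-fold in replicate 1 (exact 95% interval 0.846 to 1.21) and 1.10-fold in replicate 2 (0.935 to 1.29). Mir488 exceeded Mir592 1.06-fold in replicate 1 (0.930 to 1.20) and 1.21-fold in replicate 2 (1.08 to 1.35), so their order rests on replicate 2. With 2 libraries, an exact unpaired permutation test of 1 gene against another cannot give a two-sided p below 0.33, and none was run.

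Among all genes with at least 10 reads in a library, the members lay in the middle of the range. There were 426 such genes, with a median of 95.3 CPM. Mir383 ranked 130th, Mir346 174th, Mir488 192nd, Mir592 203rd, Mir490 232nd, Mir224 236th and Mir452 281st. Within the 197 of them that lie in introns of protein-coding genes on the same strand, the ranks ran from 55 for Mir383 to 110 for Mir452, beside a median of 44.4 CPM. Of all 719 intronic rows, 159 reached 10 reads in each library and 343 were without any read.

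For each member, the tested gene nearest in log2 CPM over the 2 libraries was found, with distance taken over both values. Mir1193 was nearest to Mir383, at 434 and 402 CPM, and Mir505 to Mir346, at 208 and 196 CPM. The nearest were Mir329 for Mir488, Mir410 for Mir592, Mir31 for Mir490, Mir873a for Mir224 and Mir551b for Mir452. Distances ran from 0.041 to 0.106 on the log2 scale. They show likeness of level in 2 libraries and no more.

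The pools were then compared gene by gene, which answers how closely separate pools of hindbrain give the same level for these microRNAs. None of the 7 members differed beyond counting error. By the exact two-sided conditional binomial test with Benjamini-Hochberg adjustment over the 426 genes, 0 of 7 passed an adjusted p of 0.05, and 0 had an unadjusted p under 0.05. The same test called 35.9% of all tested genes, and 27.2% of the 147 tested genes whose reads lay within the members' range of 85 to 1968 in both libraries. edgeR's exact test called 0 of 7 members with an assumed coefficient of variation of 0.1 or 0.2, where it called 6 and 0 of all 426 genes, so that count says nothing about the members. The test compares 2 libraries with 1 on each side, and so has no replicate check.

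Log2 ratios of replicate 2 over replicate 1 after TMM scaling were small. They were -0.07 for Mir383 (95% exact interval -0.17 to 0.02), -0.06 for Mir346 (-0.20 to 0.08) and -0.08 for Mir592 (-0.26 to 0.10). Mir488 was at 0.11 (-0.06 to 0.28) and Mir490 at 0.06 (-0.18 to 0.30). In Gabre, Mir224 was at -0.06 (-0.31 to 0.19) and Mir452 at -0.11 (-0.54 to 0.33). Adjusted p in this exact test ran from 0.249 for Mir383 to 0.788 for Mir224, with 5 members lower and 2 higher in replicate 2, and no direction could be assigned to any of them.

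**Figure D3:**
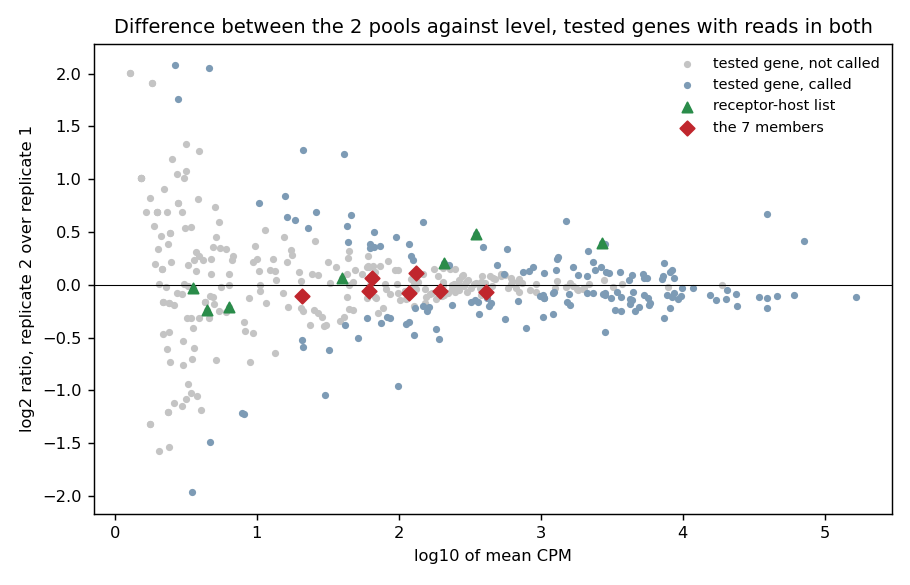
Each point is a tested gene with reads in both libraries, with the log10 of its mean CPM across and the log2 ratio of replicate 2 over replicate 1 upward. Members (diamonds) lie within 0.11 of 0, while the 7 tested genes of the receptor-host list (triangles) run from -0.24 for Mir1912 to 0.48 for Mir448. Mir764, Mir1912 and Mir653 of that list had 14 to 29 reads, fewer than any member, so their ratios are less certain.

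The depth set what could have been seen. At the reads of replicate 1, Mir383 would have been called at a ratio of 1.08 or above or 0.922 or below, and Mir346 at 1.12 or 0.887. For Mir452, with the fewest reads, those ratios were 1.40 and 0.672, so a smaller difference was not detectable at this depth. The median size of the log2 ratio was 0.07 over the members, 0.14 over the 147 genes of like depth and 0.17 over all tested genes. Of the 147 genes, 42.9% had a ratio no larger than the largest of a member.

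Other microRNAs of receptor genes were measured in the same way. That list held 17 rows whose host symbol marks a glutamate, GABA, serotonin, dopamine, acetylcholine or related receptor, or that lie in Htr2c or Calcr. It also takes in Mir1198 and Mir6953, whose hosts Gripap1 and Grina only share the start of the symbol. Of the 17, 7 reached 10 reads in each library and 7 were without any read. Mir1298 in Htr2c, the gene of a serotonin receptor abundant in choroid plexus, led the list at 2684 ± 545 CPM (SD, n = 2), above every member. It was followed by Mir448 at 348 ± 83.8 CPM and Mir1264 at 207 ± 23.0 CPM, both also in Htr2c, and by Mir1198 at 39.7 ± 1.49 CPM. Mir105 and Mir767 in Gabra3, the gene of another GABA-A subunit, were listed at 0 reads in both libraries, which allows up to 0.762 CPM in replicate 1 and 0.620 in replicate 2. Mir224 and Mir452, in the epsilon subunit gene, had 85 to 295 reads. The binomial test called 3 of the 7 tested genes of the list, which are 3 of its 5 tested genes in Htr2c, each higher in replicate 2: Mir448 by a log2 ratio of 0.48 (0.37 to 0.59), Mir1298 by 0.40 (0.36 to 0.44) and Mir1264 by 0.21 (0.07 to 0.35). The other tested Htr2c genes did not pass, with ratios of -0.21 for Mir764 (-1.02 to 0.60) and -0.24 for Mir1912 (-1.22 to 0.75). Over all tested genes, the same test called 35.9%.

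A list of 12 microRNAs in introns of other genes taken as neuronal had a higher median level. Whether these hosts act in neurons was not tested. The levels ran from 6.38 CPM, below every member, to 4482 CPM. All 12 reached 10 reads in each library, and their median was 824 CPM, beside 117 CPM for the 7 members. Mir139, with the annotated host Gm45837, led at 4482 ± 122 CPM (SD, n = 2). It was followed by Mir598 in Xkr6 at 4213 ± 122, Mir708 in Tenm4 at 2345 ± 69.9 and Mir128-1 in R3hdm1 at 2333 ± 265. Mir128-1 has a near copy, Mir128-2 in Arpp21, and its level is uncertain because reads of either may be placed at several loci. The binomial test called 7 of the 12, with 3 higher and 4 lower in replicate 2, beside 35.9% of all tested genes. The median size of the log2 ratio over the 12 was 0.12, beside 0.07 for the members. The part of depth in the number of calls was not tested.

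**Figure D4:**
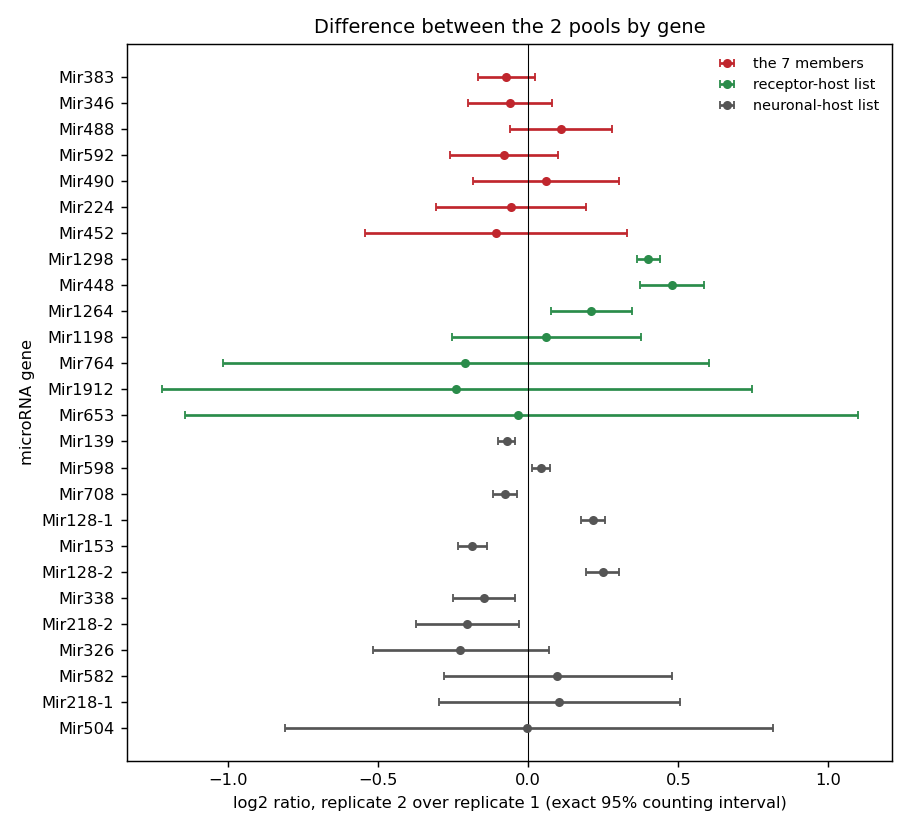
Points give the log2 ratio of replicate 2 over replicate 1 for the 7 members and the tested genes of the receptor-host and neuronal-host lists, and bars give the exact 95% interval from counting error. Every member's bar crosses 0, as do those of Mir1198, Mir764, Mir1912 and Mir653, while the bars of Mir1298, Mir448 and Mir1264 lie above it.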

How the data were processed

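The authors deposited raw read counts per microRNA gene for each of the 2 libraries, on build mm10 with GENCODE M4 per the submitters' deposited notes. Which aligner and counter were used is not given in the sources used here. Column 3, the strand with the larger total, was used, and the 4 rows that name no gene (51.6% and 53.0% of reads) were left out. The layout, an inference, is that of counts which give reads placed at several loci to no gene.

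Symbols, positions and hosts came from GENCODE M21, matched by identifier without version (1894 of 1973). Where several protein-coding genes on the same strand overlapped a hairpin, the first by symbol was named as its host. A host such as Gm45837 for Mir139 may therefore not be the only one. The members and lists were chosen with earlier results of these data known. Genes named are the members, the 4 highest of each list, and each member's nearest gene. Markers and genes that share a seed or sequence are named too, and other genes of the receptor list were named after their values were seen. Genes with at least 10 reads in a library were compared across all genes by an exact conditional binomial test after TMM scaling (edgeR 4.0.16, R 4.3.3). The test was tried on simulated Poisson counts, which hold counting error only and no variation between pools. Alternatives used DESeq2 1.42.0 size factors, total counts, both strands, other minimums and edgeR's exact test. Folding used RNAfold 2.7.2. Python 3.11.15 and scipy 1.17.1 were used.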

Additional observations from a re-analysis of the deposited data

How the results depend on the processing

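Scaling by DESeq2 size factors or total counts, counting both strands, minimums of 1 or 50 reads, and edgeR's exact test with an assumed coefficient of variation of 0.1 or 0.2 were tried. Under these 7 settings, 0 of 7 members were called each time, with adjusted p from 0.250 to 1. All 49 log2 ratios of members kept their direction. The settings with edgeR's exact test keep the main ratios and change p only, so direction could change only under the others. Each of those others shifts the ratios of all members by the same amount, so the 49 are not separate checks. Of all genes tested, the main test called 153 of 426, against 152 of 426 with DESeq2 size factors and 149 of 426 with total counts. It called 163 of 437 with both strands, 137 of 721 at a minimum of 1 read and 150 of 307 at a minimum of 50. The share of all genes called thus changed with the minimum, while the counts stayed similar. edgeR's exact test called 6 genes at 0.1 and 0 at 0.2, with 32 and 12 at an unadjusted p under 0.05. Its count of 0 members thus says nothing about them. Under TMM library sizes or both strands, member levels moved by less than 1 SD in 12 of 14 cases. With both strands counted, Mir346 was at 191 CPM and Mir224 at 60.5 CPM, since the library totals grew while the members have no opposite reads. Leaving out a replicate only returns the other library's Mir224 to Mir452 ratio, 2.91 or 3.01, so it is no further check. No paired comparison of groups was possible because there is 1 group.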
